A study of Mus musculus with 4 samples.

Results

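The genes described here carry glucose through the heart cell: 32 genes for glucose uptake, glycolysis, lactate production and transport, and the making and breaking of glycogen. They were chosen by gene symbol from a deposited table of 55401 gene rows. Those symbols stood on 33 rows, because Aldoa names 2, and 32 rows, 1 for each symbol, held enough counts to be tested. The second Aldoa row had 0 counts in all libraries but MI replicate 2, where it had 10, and was not tested. The libraries came from mouse heart 28 days after surgery, 2 from Sham hearts, whose chest was opened without ligation, and 2 from MI hearts, which had the ligation operation that gives a myocardial infarction. The study's design text names infarcted tissue and normal left ventricle, while the sample labels say only heart. The sources used here do not give strain, age, sex or pooling, or say that the replicates were separate animals. The tests therefore measure only how far these libraries differ, and that spread may be technical. Hearts given cyanidin, the plant pigment in the title of the study, were not analysed here.

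Glycolysis splits glucose into pyruvate in the cytosol and yields some ATP without oxygen. Lactate dehydrogenase interconverts pyruvate and lactate, and glycogen is the store from which glucose phosphate can be drawn without uptake. The adult heart draws most of its ATP from fatty acids and also burns lactate, and many steps of glycolysis exist there as a muscle or heart isoform beside a more widely expressed partner from another gene. Flux is set mostly at glucose uptake, hexokinase, phosphofructokinase and the enzymes of fructose 2,6-bisphosphate, a potent activator of phosphofructokinase.

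On the scale described next, most enzymes of the pathway lay close to their Sham level in MI hearts. Of the 32 members, 26 had a log2 difference within 0.3 of 0, on CPM (counts scaled to library depth) with library sizes set by the trimmed mean method (TMM). The share of all genes within 0.3 was not counted. On this scale the 4 members beyond 0.5 all had negative values. They were Pfkfb1 and Pfkfb3, which make and remove fructose 2,6-bisphosphate, the glycogen synthase gene Gys1, and Phkg1, a subunit of phosphorylase kinase. With the libraries scaled to cardiomyocyte markers instead, Pfkl (0.69), Aldoc (0.55), Eno1 (0.55) and Pfkp (0.55) were above 0.5. Pfkfb1, Pfkfb3 and Gys1 were then still beyond 0.5 on the negative side, and Phkg1 was at -0.45. After adjustment over the 18475 genes tested in edgeR, 0 of the 32 had a p under 0.05, as did 0.0% of all genes, and the smallest adjusted p of any gene was 0.185. At an unadjusted p under 0.05, 1 member was higher in MI (Pfkl), beside 7.12% of all genes, and 3 were lower (Pfkfb1, Gys1 and Phkg1), beside 4.51% of all genes. DESeq2 called 2 members at an adjusted p under 0.05, Pfkfb1 and Gys1, both lower, while over all genes it called 2.19% higher and 1.27% lower.

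**Figure D1:**
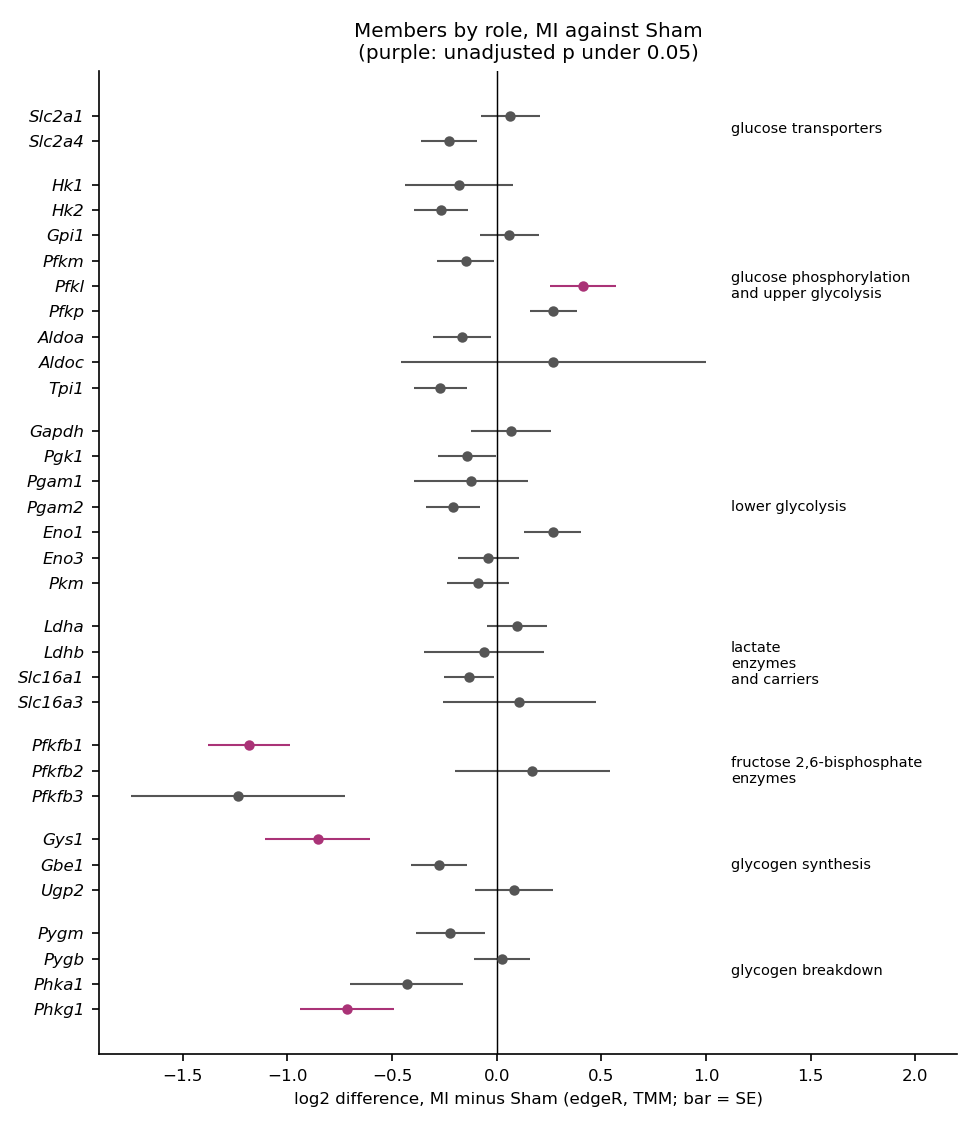
Log2 difference between MI and Sham (x axis) for each of the 32 tested members, grouped by role, with bars for the standard error of the edgeR fit (2 libraries per group). Most points lie within 0.3 of 0, and the 4 members beyond 0.5 are Pfkfb1, Pfkfb3, Gys1 and Phkg1.

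Total depth was 66624106 to 75979320 estimated counts per library, at about 4 counts per sequenced fragment. Sham replicate 2 stood apart by atrial markers, which summed to 5007 FPKM (fragments scaled to transcript length and library depth) against 152 in Sham replicate 1 and 1856 to 2634 in the MI libraries, and by adipocyte markers at 42.7 FPKM against 0 to 0.09. Lung epithelial markers summed to 283 FPKM in MI replicate 1 and at most 0.86 elsewhere, and erythroid markers ranged from 6696 FPKM in Sham replicate 2 to 17630 in Sham replicate 1. Cardiomyocyte markers, all 10 of 10 detected, summed to 14860 to 16250 FPKM, while the 10 fast skeletal muscle markers summed to 5.75, 10.4, 20.9 and 7.08 FPKM in Sham replicate 1, Sham replicate 2, MI replicate 1 and MI replicate 2, the order used below. At an unadjusted p under 0.05, 5 of 8 fibroblast and 2 of 6 endothelial markers were higher in MI. So was 1 of 6 smooth muscle and pericyte markers, beside 7.12% of all genes. At the same threshold 4 of 5 atrial and 1 of 10 cardiomyocyte markers were lower, beside 4.51% of all genes. Fibroblast markers summed to 105, 157, 394 and 272 FPKM and endothelial markers to 389, 363, 582 and 490. The part of these cells in the results below was not tested. In whole tissue fewer cells of a type and less RNA per cell cannot be told apart.

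The balance between the muscle or heart isoform and its partners differed in 4 families without overlap of the libraries. The partner is not the more widely expressed gene in every family. Aldoc is the brain form, Ldha the muscle subunit and Slc16a3 the exporter of glycolytic tissue, so the counts over 9 families mix unlike pairs. In 9 of 9 isoform families the mean share of the family's FPKM that went to the muscle or heart isoform was lower in MI, and in 4 of them (phosphofructokinase, enolase, glucose transport and glycogen phosphorylase) each MI library was under each Sham library. No share over other gene families was counted to set beside these counts. The nearest Sham and MI shares were 92.63% and 90.37% in phosphofructokinase and 93.78% and 93.24% in glucose transport. They were almost level in enolase (95.91% and 95.81%) and glycogen phosphorylase (63.74% and 63.69%). With further isoforms of the same step added to the denominators, enolase and glycogen phosphorylase lost this separation (exact permutation p = 1.0 and 0.667) and glucose transport kept it. No further isoform was added to phosphofructokinase. A share within a library does not depend on how libraries are scaled. With 2 libraries against 2, the exact permutation test (2-sided) cannot give a p under 0.333, which these 4 families had (0.75 after Benjamini-Hochberg adjustment over the 9). Libraries in random order would separate a family, in either direction, with that same probability of 0.333. All 9 muscle or heart isoforms had a negative log2 difference on the TMM scale, with a median of -0.16, but all 9 were positive when the libraries were scaled to cardiomyocyte markers. Of the 10 partner isoforms 8 were positive with TMM, with a median of 0.10, and Hk1 and Pgam1 were negative. In TMM-scaled CPM, the scale of all CPM below, each MI library exceeded each Sham library for 4 of the 32 members, beside 24.9% of all genes tested. These were the partners Slc2a1, Pfkl, Pfkp and Eno1. Each MI library was under each Sham library for 14 members, beside 21.9% of all genes, and 7 of the 14 were muscle or heart isoforms. This order depended on the scale. Of the 14, only Pfkfb1, Gys1, Gbe1 and Phkg1 kept it in FPKM, and none of the muscle or heart isoforms did. Pfkm was even reversed, at 169.2 and 174.6 FPKM in Sham against 186.4 and 175.1 in MI. The share of all genes with this order in FPKM was not counted. The shares of hexokinase, aldolase, phosphoglycerate mutase, lactate dehydrogenase and the lactate carriers changed direction when at least 1 of the libraries was left out. In the 4 families without overlap, leaving out 1 library could not change the direction.

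**Figure D2:**
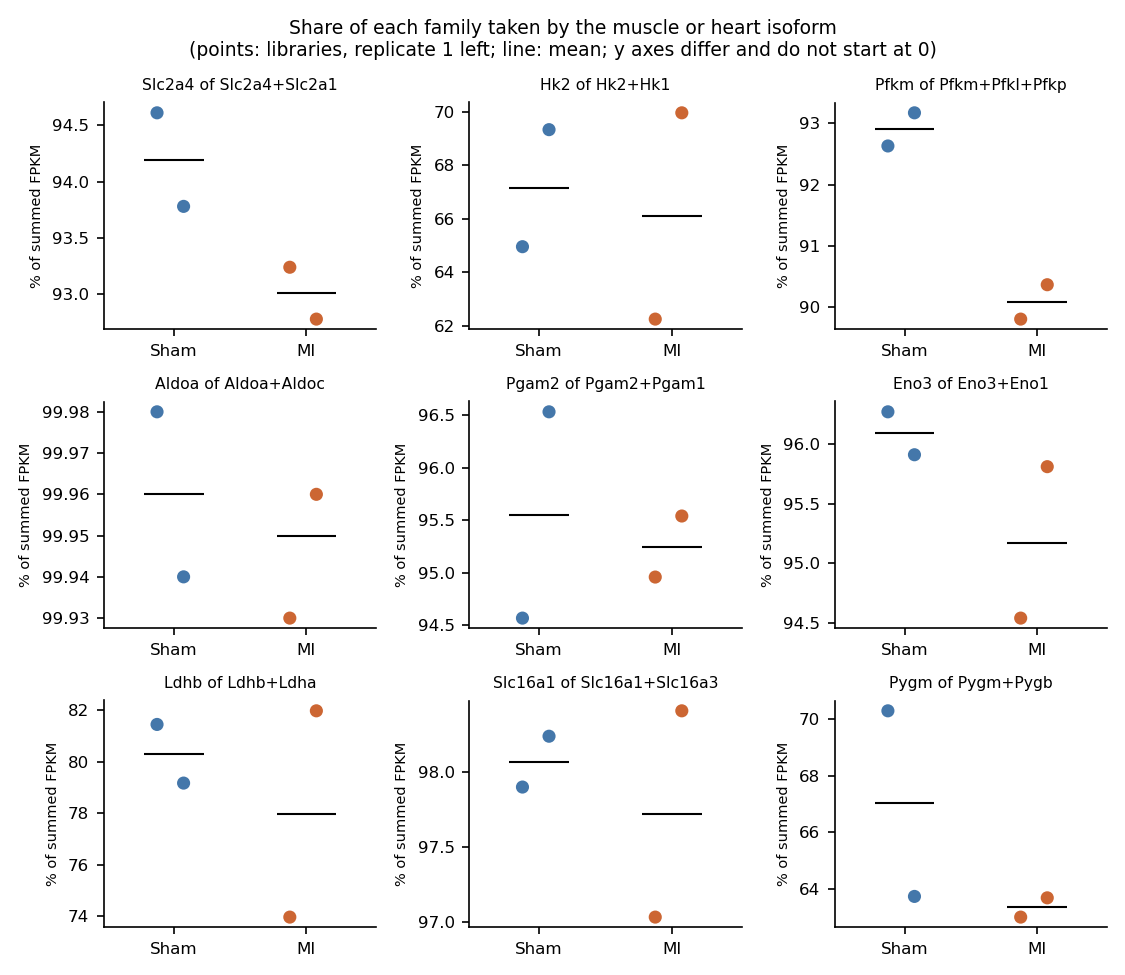
Share of each family's summed FPKM (y axis, percent) that the muscle or heart isoform took in each library, Sham in blue and MI in orange, with the group mean as a line. In the Pfkm, Slc2a4, Eno3 and Pygm panels both MI points lie under both Sham points, and in the other 5 the groups overlap.

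Phosphofructokinase commits sugar to glycolysis, and its muscle subunit gene Pfkm took 92.6%, 93.2%, 89.8% and 90.4% of the family's FPKM. The share averaged 92.9% ± 0.38 in Sham and 90.1% ± 0.40 in MI (SD, n = 2 each). The difference of -2.81 points stayed between -3.09 and -2.53 when any 1 library was left out. From estimated counts, which are not scaled to transcript length, the Pfkm share was 83.3%, 83.8%, 77.8% and 78.7%, a difference of -5.34 points. The liver subunit gene Pfkl (chromosome 10, 77986947 to 78009807) had 82.8, 65.7, 100.2 and 97.4 CPM. The platelet subunit gene Pfkp (chromosome 13, 6579768 to 6648777) had 57.8, 59.9, 69.8 and 72.2 CPM. Both partners were thus higher in each MI library than in either Sham library. For each 100 FPKM of Pfkm there were 5.9, 5.05, 8.43 and 7.78 FPKM of Pfkl, and 2.05, 2.29, 2.92 and 2.87 of Pfkp. The log2 difference was 0.41 ± 0.16 (SE) for Pfkl (edgeR unadjusted p = 0.0482, adjusted p = 0.428) and 0.27 ± 0.11 for Pfkp (unadjusted p = 0.0644, adjusted p = 0.455). In edgeR the unadjusted p of Pfkl was 0.133 without Sham replicate 2, 0.163 without MI replicate 1 and 0.134 without MI replicate 2. It was 0.0522 with DESeq2's size factors, 0.0538 with upper-quartile scaling and 0.0643 with the replicate number as a block. Of Pfkp's 75-base words 16.6% also occur in Pitrm1, a gene that overlaps it on the opposite strand and had 7.94 to 9.2 FPKM. The sources used here do not say whether the counting used strand, so Pfkp is uncertain.

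Glucose enters through carriers of the SLC2A family. Slc2a4, the insulin-responsive GLUT4 of muscle and fat, had 270.8, 243, 227 and 212 CPM. Slc2a1, the widely expressed GLUT1, had 15.6, 16.3, 16.6 and 16.7. GLUT4 was thus the main carrier transcript in every library, with 94.6%, 93.8%, 93.2% and 92.8% of the pair's FPKM. The difference in its share was -1.18 points and ranged from -1.6 to -0.77 over the fits with 1 library left out. Slc2a1 by itself had a log2 difference of only 0.06 ± 0.14.

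Enolase makes phosphoenolpyruvate. Eno3, the muscle gene, took 96.3%, 95.9%, 94.5% and 95.8% of the FPKM of Eno3 and Eno1. The groups did not overlap, but Sham replicate 2 and MI replicate 2 were nearly level. Eno1, the widely expressed gene, had 86.2, 89.9, 113.7 and 98.2 CPM. Its log2 difference was 0.27 ± 0.13 (edgeR unadjusted p = 0.107). The difference in the Eno3 share was -0.92 points, and -0.28 without MI replicate 1, the library with lung transcripts. Eno1 shares 65.4% of its 75-base words with other genes, mainly Eno1b and Gm4735, and with these added to it the Eno3 share was 93.6%, 94.0%, 92.4% and 94.1%. The groups then overlapped, with a difference of -0.58 points. In estimated counts without the copies the difference was -2.36 points and the groups did not overlap.

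Glycogen phosphorylase releases glucose phosphate from glycogen. Pygm, the muscle gene, took 70.3%, 63.7%, 63.0% and 63.7% of the FPKM shared with Pygb, the brain form that heart also expresses. Sham replicate 1 alone stood high, and without it the difference of -3.67 points was -0.39. Pygb had 592, 643, 623 and 632 CPM and Pygm 937, 756, 710 and 741 CPM. The groups overlapped for Pygb, and for Pygm the MI libraries lay just below Sham replicate 2.

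The isoform share of phosphoglycerate mutase, by contrast, showed no shift beyond the spread of the Sham libraries. Pgam2, the muscle gene, took 94.6%, 96.5%, 95.0% and 95.5% of the FPKM of the pair, and the Sham libraries enclosed both MI libraries. Pgam2 had 471, 445, 395 and 398 CPM, each MI value under each Sham value, though its groups overlapped in FPKM. Pgam1, the widely expressed form, had 63.8, 37.8, 49.5 and 43.8 CPM. Pgam1 shares 40.6% of its 75-base words with other genes, chiefly the copy Pgam1-ps2, while Pgam2 shares none.

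The mutase genes differ in the sequence before their start. The 250 bases before the RefSeq start (build GRCm38.p6, each written 5′ to 3′ on the strand of its gene) are shown for Pgam2 (chr11:5803797-5804046, minus strand) and Pgam1 (chr19:41911621-41911870, plus strand) as an example of a muscle and a widely expressed isoform. They are followed by Pfkl (chr10:78009808-78010057, minus strand) and Pfkfb1 (chrX:150587993-150588242, plus strand), which had the smallest unadjusted p of the members above and below Sham. Capitals mark each CG dinucleotide.
Pgam2: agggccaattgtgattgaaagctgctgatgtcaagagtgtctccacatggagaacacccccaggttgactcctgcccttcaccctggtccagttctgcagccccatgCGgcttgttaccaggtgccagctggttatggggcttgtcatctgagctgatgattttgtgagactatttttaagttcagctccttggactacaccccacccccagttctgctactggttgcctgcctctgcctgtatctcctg
Pgam1: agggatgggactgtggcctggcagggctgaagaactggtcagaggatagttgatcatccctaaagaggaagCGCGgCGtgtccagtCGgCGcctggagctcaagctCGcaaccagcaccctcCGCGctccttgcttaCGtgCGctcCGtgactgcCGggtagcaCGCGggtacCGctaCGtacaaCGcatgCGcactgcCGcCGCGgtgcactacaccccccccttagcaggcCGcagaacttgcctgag
Pfkl: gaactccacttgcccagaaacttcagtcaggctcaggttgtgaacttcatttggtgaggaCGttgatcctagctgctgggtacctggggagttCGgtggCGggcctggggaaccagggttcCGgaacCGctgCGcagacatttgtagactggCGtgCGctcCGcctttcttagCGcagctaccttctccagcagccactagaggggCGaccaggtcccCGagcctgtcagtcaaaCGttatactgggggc
Pfkfb1: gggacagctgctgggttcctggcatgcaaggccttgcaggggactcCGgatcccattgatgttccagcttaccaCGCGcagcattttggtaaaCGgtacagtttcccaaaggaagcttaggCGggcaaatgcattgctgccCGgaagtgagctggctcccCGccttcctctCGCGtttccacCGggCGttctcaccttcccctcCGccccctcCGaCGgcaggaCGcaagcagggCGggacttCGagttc
Pgam2 has 1 CG and Pgam1 has 22, whereas Pfkl and Pfkfb1 have 13 and 17. Among other families, Eno3 has 3 and Eno1 9, Pygm 4 and Pygb 17, and Aldoa 0 and Aldoc 5. Hexokinase and the lactate carriers are the other way round, with 25 for Hk2 and 1 for Hk1, and 37 for Slc16a1 and 29 for Slc16a3. The heart subunit gene Ldhb has 14 and Ldha 25, and Pfkm has 2 beside 13 for Pfkl and 16 for Pfkp. The 31 members with an entry had a median of 13, and the 32851 upstream windows of the whole table a median of 6. Pfkl and Pfkfb1, on opposite sides of Sham, are thus close in this count. Of the 31 starts, 24 lay within 100 bases of the start in the deposited table. Only 20 of the 31 members had a single RefSeq start, and for the rest the nearest start was used. Hk1 had 2 starts, Aldoa and Eno1 3 each, and Pfkm and Pfkfb1 4 each. Their CG counts therefore describe 1 start and not the gene as a whole.

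Hexokinase traps glucose in the cell. Hk2, the insulin-regulated muscle form, had 218, 209, 186 and 169 CPM, each MI value under each Sham value (log2 difference -0.27 ± 0.13, edgeR unadjusted p = 0.0948). Its groups overlapped in FPKM, at 29.4, 31.3, 32.6 and 26.4, and its log2 difference was 0.014 with the cardiomyocyte scaling. Hk1, the form of most tissues, had 168, 132, 161 and 104 CPM, with replicate 1 higher than replicate 2 in both groups. The Hk2 share of the pair was 65.0%, 69.3%, 62.2% and 70.0%, so the groups overlapped. Without Sham replicate 2 or MI replicate 1 the mean difference of -1.04 points turned to 1.15 or 2.82.

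Between hexokinase and pyruvate most transcripts were abundant and close to level. Aldoa, the muscle aldolase that splits fructose bisphosphate, had 1523, 1602, 1412 and 1376 CPM and took at least 99.9% of its pair with Aldoc, the brain form. Tpi1, which interconverts the triose phosphates, had 374, 398, 316 and 323 CPM (log2 difference -0.27 ± 0.13). For these 2 genes the MI values were all under the Sham values, though both differences were positive with the cardiomyocyte scaling, while for Gpi1, the isomerase above phosphofructokinase, the groups overlapped at 428 to 487 CPM. Pgk1, the first ATP-yielding kinase, had 328, 294, 294 and 270 CPM, and Pkm, pyruvate kinase, 864, 749, 773 and 743. Pkm's groups overlapped, and those of Pgk1 were apart by less than 1 CPM. Eno3 had 719, 681, 636 and 725 CPM, with an overlap of the groups. Aldoc was the faintest member, at 23 to 95 estimated counts.

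The Gapdh row held a small share of the FPKM listed for Gapdh and its near copies. Its own row, for glyceraldehyde phosphate dehydrogenase, held 52.8, 47.8, 57.5 and 65.1 FPKM, below its neighbours Pgk1 (112.5 to 137 FPKM) and Tpi1 (109.5 to 129.3). Of its 75-base words 80.3% occur in other annotated genes, and 51 of those share at least 10% of them, 46 being typed as processed pseudogenes in the deposited table. Gapdh and these 51 genes together summed to 1438, 1359, 1651 and 1413 FPKM, of which the Gapdh row was 3.67%, 3.51%, 3.48% and 4.61%. Of the summed estimated counts, which are not scaled to transcript length, it held 13.1%, 12.6%, 12.5% and 16.2%. In each library 5 copies (Gm7336, Gm12070, Gm2606, Gm5559 and Gm13394) were listed above Gapdh itself. The sources used here do not say how reads that match several genes were assigned. The Gapdh row had a log2 difference of 0.07 ± 0.19, and the sum of counts over Gapdh and its copies one of -0.09 ± 0.16 (edgeR, chosen after seeing the data). Neither differed beyond its error. Eno1, Pgk1 and Pgam1 had at least 56.3% of such a sum of FPKM in their own rows. In all, 10 of the 32 members share at least 10% of their words with another gene, and 15 share none.

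**Figure D3:**
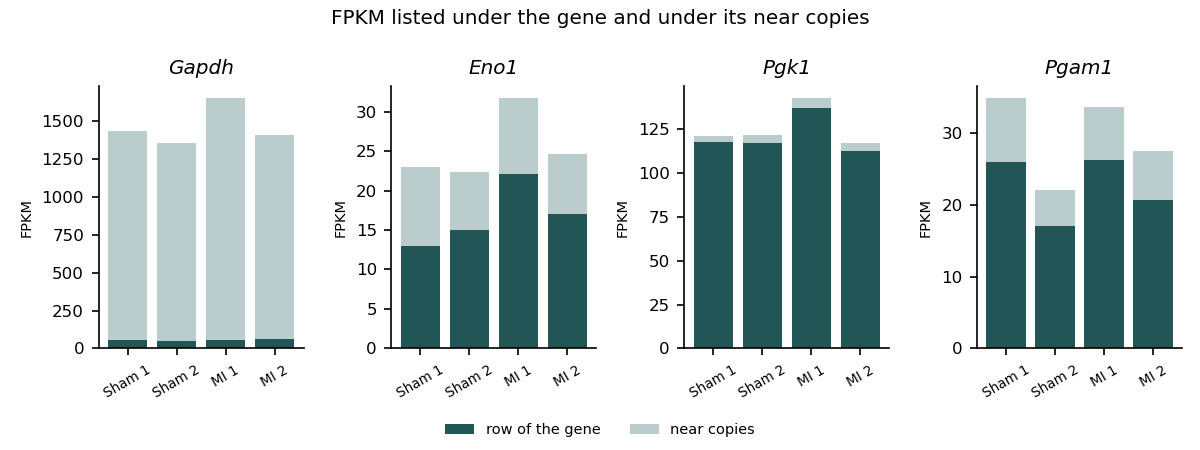
FPKM (y axis) in each library for the row of the named gene (dark) and for the genes that share at least 10% of its 75-base words (light). The Gapdh row is 3.48% to 4.61% of its sum, while the Pgk1 row is 96.1% to 97.2%.

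Lactate dehydrogenase was dominated by the heart subunit Ldhb, which favours lactate use. Its FPKM was 462, 382, 387 and 551, and its share of the pair was 81.5%, 79.2%, 74.0% and 82.0%. The highest and the lowest share were both in MI libraries, and without MI replicate 1 the mean difference of -2.34 points became 1.67. Ldha, the muscle subunit, had 432, 372, 431 and 429 CPM. Slc16a1, the lactate carrier MCT1, had 158.8, 156.9, 141.1 and 146.7 CPM, each MI value being lower, but its difference of -0.13 was 0.14 with the cardiomyocyte scaling. Slc16a3, the exporter MCT4 of glycolytic tissue, was low, at 0.5 to 1.02 FPKM. No lactate gene had an unadjusted p under 0.05.

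The Ldha upstream window (chr7:46845554-46845803, plus strand, GRCm38.p6) is shown because it has the most matches among the members to ACGTG, the core bound by hypoxia-inducible factors. Capitals mark ACGTG on either strand. It also lies within the E-box CACGTG, which counts on both strands.
Ldha: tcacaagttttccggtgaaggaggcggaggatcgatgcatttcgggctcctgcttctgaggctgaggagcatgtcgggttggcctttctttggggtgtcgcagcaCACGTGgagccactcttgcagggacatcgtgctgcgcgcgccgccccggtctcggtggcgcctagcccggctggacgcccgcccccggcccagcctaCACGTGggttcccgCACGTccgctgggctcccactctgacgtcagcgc
ACGTG occurred on either strand in 13 of 31 member windows (41.9%), against 16.6% of all 32851 windows. The members were chosen by function, and a match is only a run of letters. ACGTG itself holds a CG, and the member windows had a median of 13 CG against 6 in all windows. All windows include every start of a gene, while each member counts once. The part of these in the difference was not tested. Of the members with an unadjusted p under 0.05, Pfkl, Pfkfb1, Gys1 and Phkg1 each had 0 matches. The window of Ldha begins from the nearer of its 2 RefSeq starts, 4329 bases from the start in the deposited table.

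By size, the largest log2 differences of the 32 were those of Pfkfb3 and Pfkfb1, enzymes of fructose 2,6-bisphosphate. Of the 3 such enzymes 1 had an unadjusted p under 0.05, being lower, beside 4.51% of all genes lower at this threshold. Pfkfb1, best known from liver and skeletal muscle (ENSMUSG00000025271, chromosome X, 150588229 to 150643878), had 17.6, 13.9, 7.29 and 6.57 CPM. Both MI values were thus far under both Sham values, by a log2 difference of -1.18 ± 0.20 (edgeR unadjusted p = 0.00208, adjusted p = 0.24; DESeq2 adjusted p = 0.000397). The unadjusted p stayed under 0.05 in every fit in which Pfkfb1 was tested, those with 1 library left out included (the fit limited to a mean FPKM of at least 5 did not hold it), and the difference ranged from -1.34 to -0.67. None of its 75-base words occurs in another gene. Pfkfb3, the inducible form with the strongest kinase activity, had 16.9, 48.2, 15.3 and 12.3 CPM. Sham replicate 2 held most of its difference of -1.24 ± 0.51, and that library also had the atrial and adipocyte transcripts. The Pfkfb3 groups overlapped in FPKM, with 1.8 in Sham replicate 1 and 2.12 in MI replicate 1. Pfkfb2, the heart form, had 44.1, 20.6, 38.2 and 34.6 CPM, with both MI libraries between the Sham libraries.

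Of the 7 glycogen genes 2 had an unadjusted p under 0.05, 1 in synthesis and 1 in breakdown, both lower, beside 4.51% of all genes lower at this threshold. Gys1, muscle glycogen synthase (ENSMUSG00000003865, chromosome 7, 45434844 to 45456619), had 111.7, 70.5, 53.8 and 46.9 CPM. Sham replicate 1 was well above the rest, and Sham replicate 2 was still above both MI libraries. The log2 difference was -0.85 ± 0.25 (edgeR unadjusted p = 0.02, adjusted p = 0.347; DESeq2 adjusted p = 0.0488) and -0.48 without Sham replicate 1. Without MI replicate 1 or 2 the unadjusted p was 0.064 or 0.113 in edgeR. For each 100 FPKM of Pygm, the phosphorylase that undoes its product, there were 8.01, 6.26, 5.09 and 4.25 FPKM of Gys1. Gbe1, the branching enzyme, had 41.8, 38.1, 31.6 and 34.5 CPM, and Ugp2, which makes UDP-glucose, 181, 186.6, 224 and 165. Gys1 overlaps Ruvbl2 on the opposite strand, and 6.0% of its words are shared with it.

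Phosphorylase kinase switches phosphorylase on. Phkg1, its muscle catalytic subunit (ENSMUSG00000025537, chromosome 5, 129863421 to 129879088), had 18.1, 25.3, 12.0 and 14.4 CPM. The MI values were below the Sham values without overlap, with a log2 difference of -0.72 ± 0.22 (edgeR unadjusted p = 0.0252, adjusted p = 0.363). The unadjusted p was 0.0717 without Sham replicate 2, 0.145 without MI replicate 1 and 0.0649 without MI replicate 2. Phkg1 is uncertain, since 24.2% of its words occur in Sumf2, on the opposite strand, which had 1.45 to 2.24 FPKM. Phka1, the muscle regulatory subunit, had 65.3, 38.9, 36.4 and 40.9 CPM, so Sham replicate 1 alone was high.

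**Figure D4:**
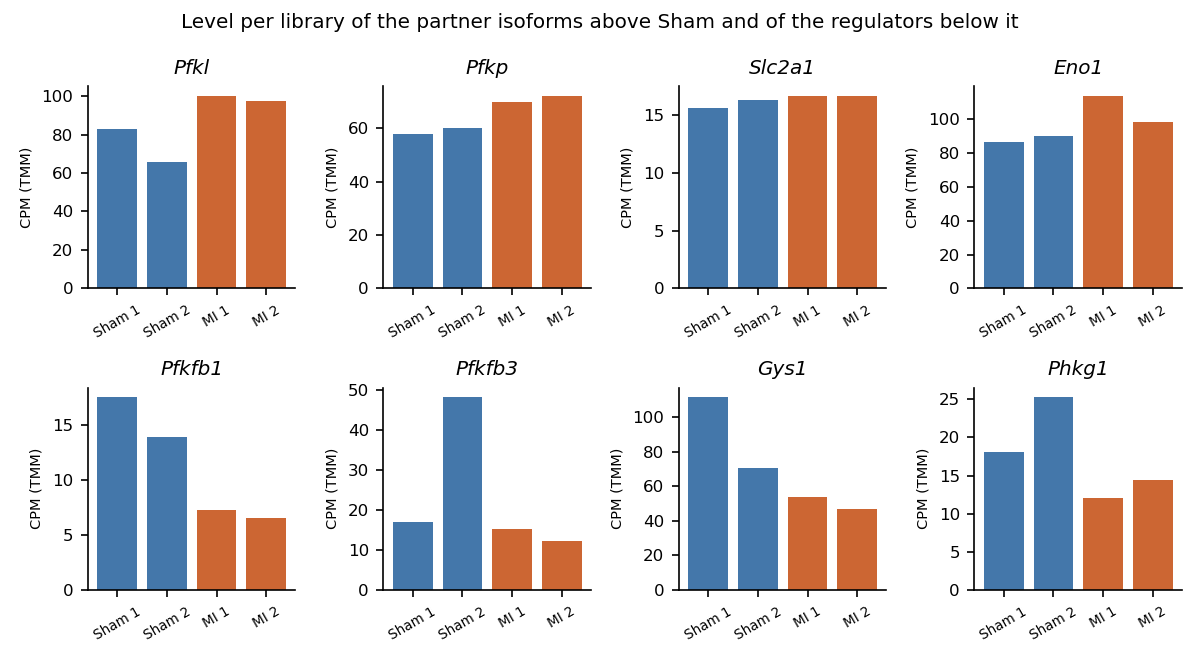
TMM-scaled CPM (y axis) per library for 4 partner isoforms (top row) and 4 regulators (bottom row), Sham in blue and MI in orange. Both MI bars are above both Sham bars in the top row and below them in the bottom row, while for Pfkfb3 the difference comes mostly from Sham replicate 2 at 48.2 CPM.

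The wider pathway was described with 46 further genes of glucose and glycogen metabolism, of which 42 were tested. At an unadjusted p under 0.05, 2 were higher and 4 lower, beside 7.12% and 4.51% of all genes. Their median log2 difference was -0.16, beside 0.0031 over all genes tested. Gpd1, the glycerol phosphate dehydrogenase that draws triose phosphate off glycolysis, had 102.3, 86.8, 49.1 and 52.6 CPM (log2 difference -0.89 ± 0.14, edgeR adjusted p = 0.225, DESeq2 adjusted p = 0.000135). The MI values were far below both Sham values. Fbp2, the muscle fructose bisphosphatase, had 29.7, 26.9, 12.0 and 17.9 CPM, and the D-lactate dehydrogenase Ldhd 49.97, 43.55, 24.6 and 31.7. Ppp1r3a, which tethers protein phosphatase to muscle glycogen, had 75.7, 76.5, 53.2 and 58.5 CPM. All 3 were lower in each MI library than in either Sham library (adjusted p from 0.327 to 0.337 in edgeR). In DESeq2 the adjusted p was 0.0314 for Fbp2, 0.0357 for Ldhd and 0.103 for Ppp1r3a. The higher genes were Pgm2l1, a glucose bisphosphate synthase, at 4.5, 4.73, 8.06 and 7.44 CPM, and Fbp1, the liver bisphosphatase, with 0 counts in both Sham libraries and 17 and 11 in MI, near the floor of 12 counts that stands for about 3 fragments. Of the 3 most abundant, Bsg, the chaperone of lactate carriers, had 693, 581, 511 and 610.3 CPM, and Pgm1, which links glucose phosphates to glycogen, 198.6, 173.6, 155.8 and 153. Ppp1r3c, another glycogen targeting subunit, had 262, 52.0, 174 and 148 CPM, with Sham replicate 2 lowest.

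Whether the median of the members lay above or below 0 depended on the scaling. Over all 32 tested members the median log2 difference was -0.13 with TMM, where the median of all genes was 0.0031. Without mitochondrial transcripts and scaled to the remaining total it was 0.02 beside 0.14 for all genes. Scaled to the 10 cardiomyocyte markers it was 0.15 beside 0.28, so the members stayed 0.12 to 0.13 below the median gene in these 3. With the cardiomyocyte scaling 5 members (Eno1, Gpi1, Ldha, Pfkl and Pfkp) were higher at an unadjusted p under 0.05 and 1 (Pfkfb1) lower, beside 15.8% and 1.42% of all genes. The same 5 and 1 had an unadjusted p under 0.05 in limma on log2(FPKM + 1), beside 12.0% and 1.82%, where the median was 0.08 against 0.10 for all genes. Pfkfb1 was lower and Pfkl higher in each of these, in log2 difference.

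**Figure D5:**
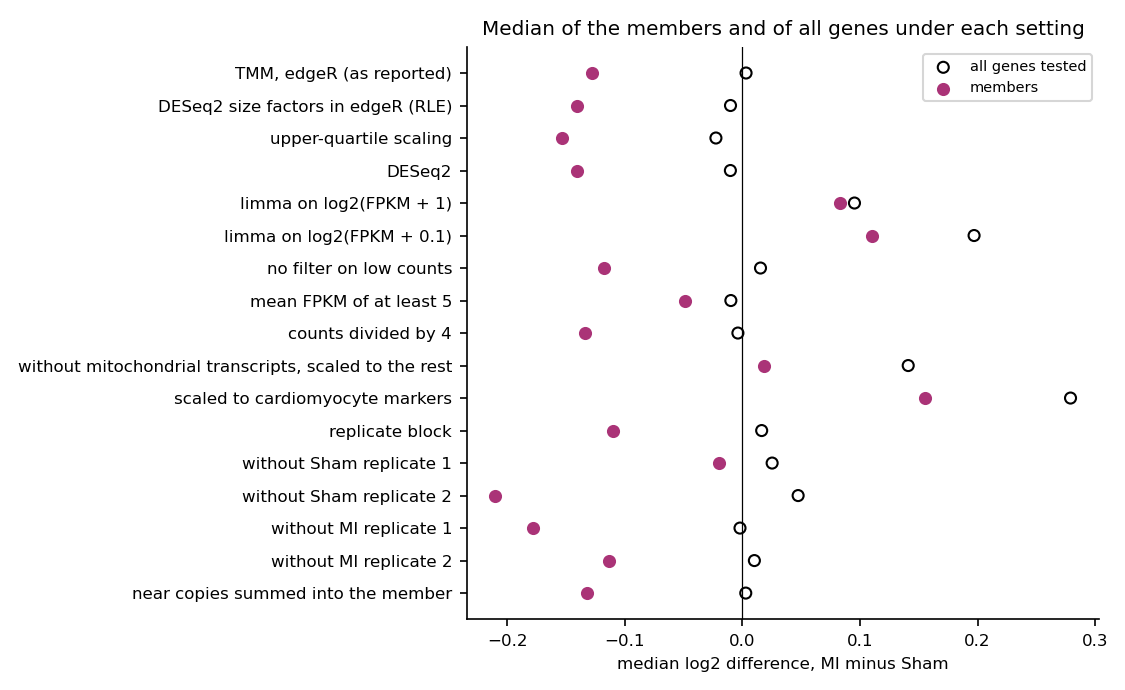
Median log2 difference between MI and Sham (x axis) over the tested members (filled) and over all genes tested (open) under each setting (y axis). The member median is below that of all genes in every row, and it is positive in 4 rows: both limma fits, the fit without mitochondrial transcripts and the cardiomyocyte scaling.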

How the data were processed

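Poly(A) RNA from mouse heart was sequenced as 4 strand-marked paired-end libraries (2 Sham, 2 MI, day 28), per the labels' protocols. The deposited table gives, per the file headers, an estimated count and an FPKM for each gene and library, normalized by the authors for length and depth in the case of FPKM. The submitters' processing notes name UMI-tools, StringTie 1.3.4d, HISAT2 2.0.4 and cutadapt 1.9, with no role. The sources used here do not give the genome build or the use of strand. Low counts pile up at 4 (1148 to 1174 genes per library) over 3 (284 to 331), so 12 counts stand for about 3 fragments. Such floors cover counting error only.

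Estimated counts, which are whole numbers, passed filterByExpr (minimum 10, total minimum 15) and TMM scaling (factors 0.877 to 1.15). The test was the 2-sided quasi-likelihood test of edgeR (version 4.0.16, on R version 4.3.3), group only, with Benjamini-Hochberg adjustment over all 18475 genes. DESeq2 1.42.0 and limma 3.58.1 were alternatives. Of these steps only the edgeR fit was run on simulated data. The simulation used the same dispersion for all genes and added differences larger than that of any member. Isoform shares use FPKM, with an exact permutation test over libraries. The alternative that adds further isoforms to a family is not reported here for hexokinase and aldolase. All members are given by value, count or range. Further pathway genes are named if their unadjusted p was under 0.05 or they were among the 3 of highest mean FPKM. Shared sequence is the share of exact 75-base words of a member's longest coding transcript found in transcripts of other genes (GENCODE M21). Upstream windows are from RefSeq (GRCm38.p6), with 31 of 32 members matched. The members and lists were chosen with earlier results of these data known.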

Additional observations from a re-analysis of the deposited data

How the results depend on the processing

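The fit called 0 genes at an adjusted p under 0.05, with 1316 higher and 834 lower at an unadjusted p under 0.05, against 638 in DESeq2 and 0 to 14 with 1 library left out. The members with an unadjusted p under 0.05, 1 higher and 3 lower, numbered 0 higher with DESeq2's size factors, upper-quartile scaling or the replicate block, 2 higher with a mean FPKM of at least 5 or without mitochondrial transcripts, and 5 higher in both limma fits and with the cardiomyocyte scaling. The lower count was 1 in those limma fits, with that scaling and with the FPKM minimum. Leaving out 1 library gave 0 to 2 higher and 1 to 4 lower. The median of -0.13 became 0.08 and 0.11 in limma with pseudocounts of 1 and 0.1, -0.048 with the FPKM minimum, 0.019 without mitochondrial transcripts, 0.15 with the cardiomyocyte scaling, and -0.21 to -0.020 with 1 library left out. Isoform shares with 1 library left out differed by -4.89 to 2.82 points (Hk2), -0.0322 to 0.00534 (Aldoa), -1.28 to 0.683 (Pgam2), -6.35 to 1.67 (Ldhb) and -1.04 to 0.343 (Slc16a1), while Slc2a4 (-1.6 to -0.772), Pfkm (-3.09 to -2.53), Eno3 (-1.55 to -0.283) and Pygm (-6.95 to -0.392) kept their direction. In the families that kept it the groups did not overlap, so leaving out 1 library could not turn the direction. With 1 sample in a group, that sample is assumed to vary like the rest.

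No member or pathway gene named with a log2 difference changed direction with DESeq2, with DESeq2's size factors, with counts divided by 4, without the filter on low counts or with the replicate block. The replicate numbers share no stated litter, batch or day, and the deviations of replicate 1 in the groups correlated at -0.0561. With the block, 0 genes were called and the members' median was -0.11. Members that changed sign with the cardiomyocyte scaling were Slc2a4 (0.053), Hk1 (0.12), Hk2 (0.014), Pfkm (0.13), Aldoa (0.11), Tpi1 (0.0040), Pgk1 (0.14), Pgam1 (0.17), Pgam2 (0.069), Eno3 (0.23), Pkm (0.19), Ldhb (0.20), Slc16a1 (0.14), Gbe1 (0.00057) and Pygm (0.056). In limma with pseudocounts of 1 and 0.1 they were Hk1 (0.017 and 0.015), Pfkm (0.072 in both), Aldoa (0.056 in both), Pgk1 (0.077 and 0.078), Pgam1 (0.14 in both), Pgam2 (0.012 in both), Eno3 (0.18 in both), Pkm (0.13 in both), Ldhb (0.14 in both), Slc16a1 (0.083 and 0.085) and Pygm (0.0052 in both). Without mitochondrial transcripts they were Pgk1 (0.00042), Pgam1 (0.034), Eno3 (0.096), Pkm (0.054), Ldhb (0.076) and Slc16a1 (0.0039). With the FPKM minimum Eno3 (0.048), Pkm (0.0025) and Ldhb (0.029) did so, with upper-quartile scaling Pygb (-0.0023), and with near copies added, an alternative chosen after seeing the data, Gapdh (-0.085). With 1 library left out the log2 difference ranged from -0.52 to 0.12 for Hk1, -0.030 to 0.16 for Gpi1, -0.30 to 1.25 for Aldoc, -0.10 to 0.24 for Gapdh, -0.45 to 0.31 for Pgam1, -0.13 to 0.060 for Eno3, -0.19 to 0.021 for Pkm, -0.0073 to 0.21 for Ldha, -0.42 to 0.25 for Ldhb, -0.37 to 0.48 for Slc16a3, -0.28 to 0.82 for Pfkfb2, -0.15 to 0.30 for Ugp2 and -0.033 to 0.084 for Pygb. The cause of these changes was not tested.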

Other observations

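At least 2 genes of the wider pathway differed more between libraries of one group than between the group means. They were chosen after their values were seen. Gsk3b, a kinase that inhibits glycogen synthase, had 7.27 CPM in Sham replicate 1 against 34.8 in the other Sham library, 32.5 in MI replicate 1 and 37.1 in MI replicate 2. Bpgm, which makes the 2,3-bisphosphoglycerate of red cells, had 59.3, 37.0, 42.4 and 61.6 CPM in the order Sham 1, Sham 2, MI 1 and MI 2, while erythroid markers summed to 17630, 6696, 11110 and 13520 FPKM. The part of blood in the Bpgm values was not tested.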
